A study of Mus musculus with 6 samples.

Results

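The regions described here are stretches of the mouse genome inside protein-coding genes where an H3K9me3 peak was listed in both libraries of PHF8-depleted neural stem cells (NSCs) and in neither control library. They were chosen by the presence or absence of peaks in the 4 lists, after the peaks of all libraries on chromosomes 1 to 19 had been merged where they overlapped or touched. A region had to overlap a protein-coding gene and to lie more than 3 kb from every protein-coding start site. Start sites were read as starts of protein-coding transcripts of protein-coding genes. Of 70705 merged regions, 25395 met this rule of place, and 981 of these were gained, that is 3.86%. Over all merged regions, 3031 (4.29%) were gained, and 1158 of them overlapped a protein-coding gene, of which 177 lay within 3 kb of a start site. Under the same rule of place, 1525 regions (6.01%) were lost, with a peak in both control libraries and in neither PHF8-depleted library, and 9772 had a peak in all 4 libraries and are called shared below. The NSCs came from the cerebral cortex of mouse embryos and were grown with EGF and FGF. They carried a lentiviral scrambled short hairpin RNA (shCTR) or one against Phf8 (shPHF8), with 2 ChIP-seq libraries of each, and nothing in the labels says whether these came from separate cultures. Input libraries of both kinds had no peak list and were not analysed here.

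H3K9me3, trimethylation of lysine 9 of histone H3, marks constitutive heterochromatin and silenced repeats, and is also found over inactive genes and gene clusters. PHF8 is a histone demethylase with a PHD finger and a Jumonji C domain that removes methyl groups from H3K9me2, H3K9me1 and H4K20me1 and is known to bind near active start sites. Along the bodies of genes the mark usually lies in patches within introns, between stretches that carry none. The lists hold peak positions only, with no height, enrichment or p-value and no read counts, so a covered base says that a peak was called there and not how strong it was. A peak can appear because more cells carried the mark or because each cell carried more of it, and these cannot be told apart.

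The reference sequence (GRCm38.p6, mm10, forward strand) of 6 stretches is printed to show what kind of DNA these regions are made of. The first 5 are the middle 200 bases of the longest stretch covered by the peaks of both shPHF8 libraries, for the regions with most bases covered in Caln1, Igsf11, Cdh13, L3mbtl4 and Trpm2. The last is from the same Caln1 region and surrounds a 50-base word that more of the 981 regions held than any other repeated word that is not a simple repeat. Capitals mark bases that lie in 50-base words, the length of the reads, found more than once in the genome.
Caln1, intron 4, chr5:130646001-130646200: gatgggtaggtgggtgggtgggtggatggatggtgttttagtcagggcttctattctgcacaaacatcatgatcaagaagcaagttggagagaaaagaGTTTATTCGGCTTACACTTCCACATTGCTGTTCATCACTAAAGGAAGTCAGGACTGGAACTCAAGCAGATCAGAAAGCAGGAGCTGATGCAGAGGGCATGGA
Igsf11, intron 1, chr16:38913401-38913600: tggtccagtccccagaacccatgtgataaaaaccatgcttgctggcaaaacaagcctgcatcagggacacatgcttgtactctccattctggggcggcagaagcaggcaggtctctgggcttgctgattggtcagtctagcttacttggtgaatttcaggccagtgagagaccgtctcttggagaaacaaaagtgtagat
Cdh13, intron 5, chr8:118948001-118948200: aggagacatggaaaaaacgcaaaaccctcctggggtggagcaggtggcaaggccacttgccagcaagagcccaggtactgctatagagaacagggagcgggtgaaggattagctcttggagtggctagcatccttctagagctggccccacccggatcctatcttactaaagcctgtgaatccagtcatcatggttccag
L3mbtl4, chr17:68587201-68587400: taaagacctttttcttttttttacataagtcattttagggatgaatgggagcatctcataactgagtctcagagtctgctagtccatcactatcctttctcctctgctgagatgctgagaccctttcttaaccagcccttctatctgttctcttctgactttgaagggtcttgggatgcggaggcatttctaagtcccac
Trpm2, chr10:77917101-77917300: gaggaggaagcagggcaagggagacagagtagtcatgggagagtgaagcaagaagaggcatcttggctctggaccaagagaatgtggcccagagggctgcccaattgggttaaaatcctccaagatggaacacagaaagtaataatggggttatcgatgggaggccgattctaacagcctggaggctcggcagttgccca
Caln1, intron 4, chr5:130644587-130644786: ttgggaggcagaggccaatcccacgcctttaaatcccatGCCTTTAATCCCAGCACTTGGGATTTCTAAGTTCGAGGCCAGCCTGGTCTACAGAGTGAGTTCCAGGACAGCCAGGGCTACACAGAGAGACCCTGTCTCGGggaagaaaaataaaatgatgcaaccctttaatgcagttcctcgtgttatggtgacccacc

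In the Igsf11, Cdh13, L3mbtl4 and Trpm2 stretches none of the 200 bases lay in a repeated word, whereas 102 bases of the first Caln1 stretch and 101 of the second did. Most gained regions resembled the former. The median region had 1.73% of its 50-base words repeated elsewhere, 856 regions (87.3%) had under 10%, and 9 (0.917%) had more than 50%. The repeated share was 0.567% in the median lost region and 1.80% in the median shared region, and 3 lost and 42 shared regions consisted mostly of repeated words. The 9 gained regions were in Zfp981 (75.7%), Lrp1b (63.3%), Smyd4 (62.2%), Etl4 (61.5%), Obox1 (58.5% and 56.8%), Serpina1b (56.7%), Abhd18 (52.9%) and Kcnmb2 (52.3%). Reads from such words cannot be placed at 1 site, so the position of these 9 peaks may be uncertain, which was not tested. The word in the last stretch occurred 8905 times in the genome and in 35 gained regions (3.57%), against 17 lost (1.11%) and 311 shared regions (3.18%). Lost regions were narrower, and per megabase of region sequence the word was in 7.99 gained, 4.03 lost and 4.99 shared regions. The word was picked as the one in most gained regions, which by itself favors that class in these comparisons. No word was picked in the same way from lost or shared regions.

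Base composition separated the gained regions little from the other classes. Their median GC content was 45.1%, compared with 44.1% in lost and 45.0% in shared regions and 41.9% over chromosomes 1 to 19. Soft-masked bases are those that the reference marks as interspersed or simple repeats. They made up 23.9% of the median gained region, 22.6% of the median lost region and 25.1% of the median shared region. Their mean share over gained regions was 28.45%, against 33.5% of the bases of chromosomes 1 to 19. At least 50% of the bases were soft-masked in 105 gained regions (10.7%, 95% Wilson interval 8.92 to 12.8), in 9.38% of lost and in 8.43% of shared regions. An annotated pseudogene was overlapped by 33 gained regions (3.36%), 7 lost regions (0.459%) and 206 shared regions (2.11%). Intervals over regions cover counting error only, since neighboring regions and regions of 1 gene are not replicates.

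By the rule, no base of a gained region was covered in shCTR. In shPHF8 replicate 1 the peaks covered from 800 to 11000 bp of a region with a median of 3800 bp, and in shPHF8 replicate 2 from 400 to 11800 bp with a median of 2600 bp. The mean of both medians was 3200 ± 849 bp (SD, n = 2). Replicate 1 covered more of the region in 730 regions and replicate 2 in 187, and both covered the same number of bases in 64. Merging joined only peaks that overlapped or touched, so peaks of both libraries had to meet in every region. They overlapped in all 981 regions, and the bases covered by both libraries made up 57.9% of the median region. These values describe peaks that the rule used and were not tested, and 2 libraries against 2 cannot reach a p-value under 0.333 in an exact permutation test.

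**Figure D1:**
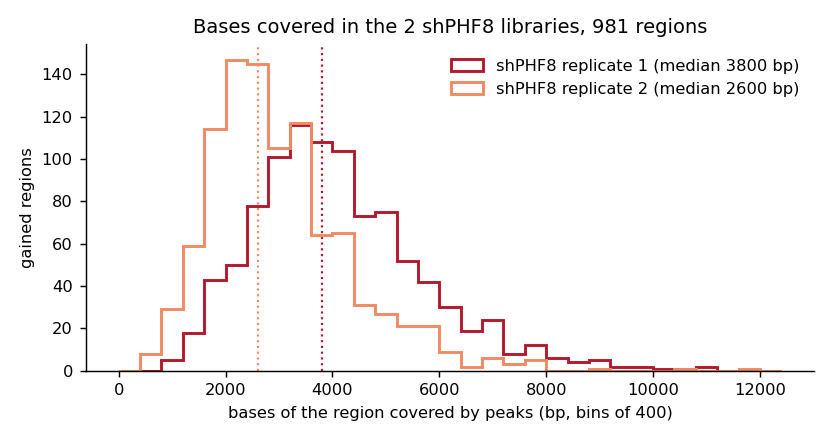
Number of gained regions (y axis) by the bases covered by peaks (x axis, bp, bins of 400 bp) in shPHF8 replicate 1 and replicate 2, with dotted lines at the medians. The distribution of replicate 1 (median 3800 bp) lies to the right of that of replicate 2 (median 2600 bp), and both overlap over most of their range.

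The 4 lists differed in extent. On chromosomes 1 to 19 the shCTR libraries listed 53039 and 53852 peaks over 156 and 159 Mb, and the shPHF8 libraries 44205 and 55344 peaks over 219 and 197 Mb. Median peak widths were 4200 and 2800 bp in the shPHF8 lists and 2400 bp in each shCTR list. The number of gained regions differed between ways of evening out the lists. When the widest peaks of each library were kept up to an equal covered length of 156 Mb, an alternative chosen after seeing the data, 289 regions inside gene bodies were gained and 4614 were lost. That selection dropped shPHF8 peaks under 4000 bp in replicate 1 and under 2600 bp in replicate 2, while it kept shCTR peaks down to 200 and 1000 bp. When an equal number of widest peaks was kept instead, the count was higher than from the full lists, at 1136. Without shCTR replicate 1, shCTR replicate 2, shPHF8 replicate 1 or shPHF8 replicate 2, the same rule over the remaining libraries gave 1871, 1846, 3471 and 2025 regions. Whether the wider coverage of the shPHF8 lists came from the cells or from the libraries was not tested.

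The surroundings of the gained regions were also covered more in shPHF8 than in shCTR NSCs. Within 10 kb on either side, outside the region itself, the mean covered length was 1326 and 1369 bp in the shCTR libraries and 2323 and 2107 bp in the shPHF8 libraries. Around lost regions these means were 2459 and 2470 bp in shCTR and 2079 and 1875 bp in shPHF8. Around shared regions they were 2397 and 2494 bp in shCTR and 2999 and 2671 bp in shPHF8. The shCTR coverage around gained regions was lower than around either other class. Both shPHF8 libraries covered more of these flanks than both shCTR libraries at 209 gained regions (21.3%), against 16.3% of all regions that met the rule of place, and less at 34 (3.47%), against 9.24%. No shCTR peak lay within 10 kb of 462 gained regions (47.1%), compared with 33.2% of lost and 32.4% of shared regions. A gained region holds no shCTR peak by the rule, whereas lost and shared regions hold one. The low shCTR coverage around gained regions is thus not independent of the choice. In the other direction, no shPHF8 peak lay within 10 kb of 44.5% of lost, 40.6% of gained and 34.5% of shared regions. The nearest shared region was a median of 20000 bp away, with 66 regions within 1 kb of one and 244 more than 50 kb from any.

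**Figure D2:**
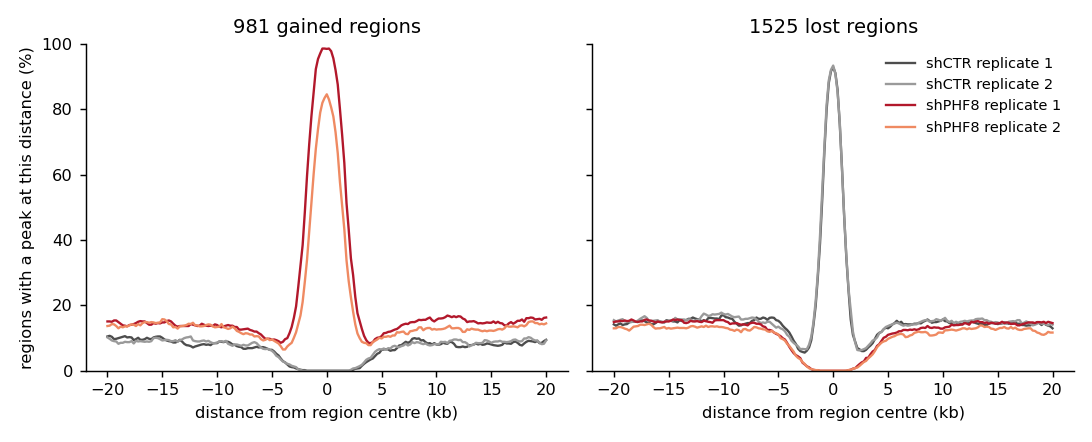
Share of regions with a peak (y axis, %) by distance from the region centre (x axis, kb) in the 4 libraries, for 981 gained regions (left) and 1525 lost regions (right). At 10 kb to the right of gained regions peaks of the shPHF8 libraries were listed at 15.6% and 12.6% and those of the shCTR libraries at 8.05% and 8.15%, and the values at the centre follow from the rule.

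Gained regions lay mostly in introns. Of the 981 regions, 637 (64.9%, interval 61.9 to 67.9) touched no annotated exon of their gene, compared with 75.5% of lost and 59.9% of shared regions. Lost regions were narrower, with a median width of 2600 bp against 4200 bp for gained and 5200 bp for shared regions, and the part of width in this difference was not tested. Among the 644 gained regions within 1 intron of the longest coding transcript, 211 (32.8%) were in the first intron and 362 (56.2%) in the longest one. The first intron held 36.2% and the longest 58.8% of such lost regions. The 3′ end of a gene lay under 54 gained regions (5.50%), against 2.75% of lost and 7.67% of shared regions.

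When each host gene was divided from start to end into 5 parts of equal length, these held 16.5, 19.3, 20.4, 20.9 and 22.9% of the centres of gained regions. For lost regions the shares were 20.3, 22.8, 20.4, 18.8 and 17.8%, and for shared regions 17.7, 21, 19.6, 19.3 and 22.5%. Gained regions were thus least frequent in the first and most frequent in the last part, where shared regions were also most frequent. The exclusion of bases within 3 kb of a start site lowers the first part in all 3 classes, most in short genes. At this limit, the nearest regions kept were in Scn4a (3012 bp from a start site; 4200 and 5200 bp covered in shPHF8) and Wasf2 (3030 bp; 3800 and 2800 bp). The Scn4a region (chr11:106352401-106359000) runs over the annotated 5′ end of that gene (chr11:106318592-106353288, reverse strand). It was kept because only starts of protein-coding transcripts counted as start sites. The nearest ones left out were in Itih4 (2880 bp; 4000 and 3400 bp) and Tmem260 (2922 bp; 4200 and 1800 bp).

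**Figure D3:**
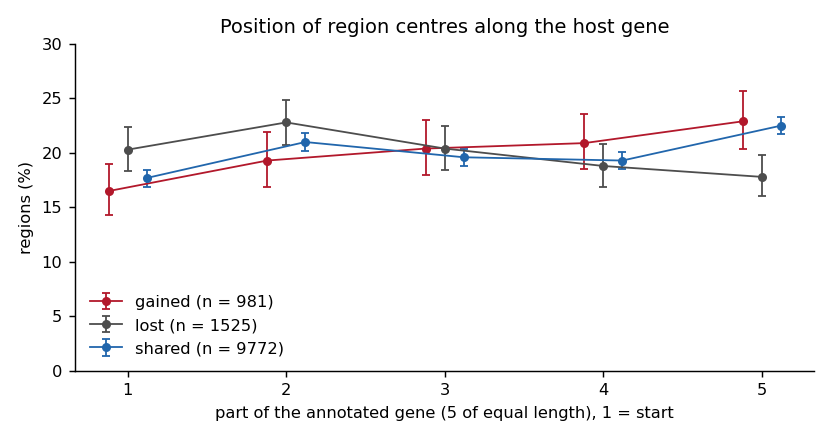
Share of region centres (y axis, %) in each of 5 equal parts of the host gene (x axis, 1 at the gene start) for gained, lost and shared regions, with 95% Wilson intervals as bars. The gained share goes from 16.5% in the first to 22.9% in the last part and the lost share from 20.3% to 17.8%.

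The 981 regions fell in 781 of 20807 protein-coding genes (3.75%), while lost regions fell in 1164 genes (5.59%). One region was found in 641 host genes, 2 in 101 and 3 or more in 39. A lost region was also present in 165 host genes, which is 21.1% of the genes with a gained and 14.2% of those with a lost region. A shared region was present in 524 (67.1%), and 243 had neither. Host genes were long, with a median annotated length of 129205 bp against 17629 bp for all protein-coding genes. A gained region was found in 0.178% of genes under 10 kb, 1.25% of those from 10 to 30 kb, 4.53% from 30 to 100 kb, 14.9% from 100 to 300 kb and 35.7% of those above. The share of genes with a lost region was also higher in longer genes, from 0.206% to 42.5%. Per 10 Mb of gene body there were 3.66 gained regions in the shortest class and 11.3 and 10.7 in the 2 longest.

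**Figure D4:**
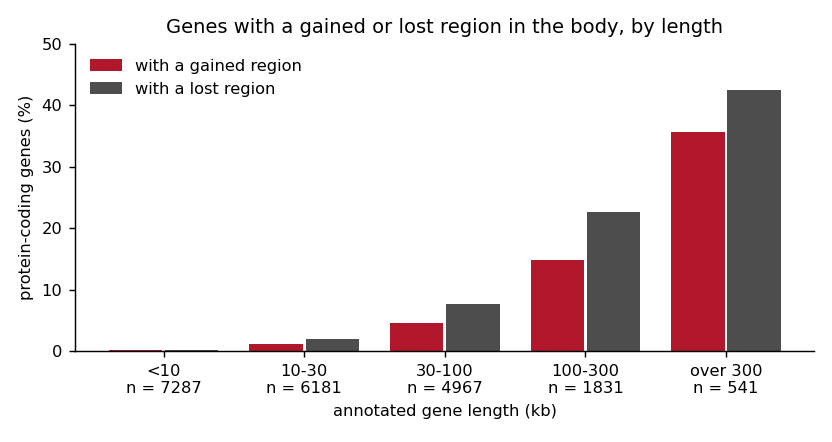
Share of protein-coding genes (y axis, %) with at least 1 gained or lost region in the body, by annotated gene length (x axis, kb, number of genes below each class). Both shares are highest in genes above 300 kb, at 35.7% for gained and 42.5% for lost regions.

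Over the bodies of the 781 host genes, peaks covered 7.71 and 7.89% of the bases in shCTR and 13.4 and 11.4% in shPHF8. With the gained regions themselves left out, the shPHF8 values were 11.3 and 9.92%. Over all protein-coding genes the 4 values were 7.12 and 7.33% in shCTR and 9.12 and 8.18% in shPHF8. Of 690 host genes with a peak elsewhere in the body, both shPHF8 libraries covered more of that remainder than both shCTR libraries in 352 (51.0%) and less in 33. Among all 10247 protein-coding genes with a peak, hosts included, both shPHF8 libraries covered more bases of the whole body in 27.8%. These shares were not matched for gene length, and host genes were longer (median 129205 bp against 17629 bp for all protein-coding genes). In 113 host genes (14.5%) neither shCTR library listed a peak anywhere in the body. Of all 20807 protein-coding genes, only 10247 had a peak in any library, so a body without shCTR peaks was not particular to host genes. Some of the 113 were only clipped by a region, such as Mlf2, with 38 and 0 bp covered in shPHF8. Those of the 113 with most bases covered in shPHF8 were Il1r2, a decoy receptor for interleukin 1, with 12231 and 8200 bp, and Smyd4, with 9400 and 8400 bp. Smarca2, the BRM ATPase of SWI/SNF chromatin remodeling complexes, followed with 4000 and 12400 bp. The values of these genes include the gained regions that made them hosts. Outside them, shPHF8 peaks covered 0 and 2600 bp of Il1r2, 5000 and 3600 bp of Smyd4 and 0 and 7600 bp of Smarca2.

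Cdh13, which encodes T-cadherin, a cadherin anchored to the membrane by a lipid rather than a transmembrane segment, held the most gained regions. The gene (ENSMUSG00000031841.19, chr8:118283733-119324921, forward strand) had 14 of them, together 85000 bp. Peaks covered 141321 and 134721 bp of its body in shCTR and 340121 and 314721 bp in shPHF8. The gained regions, which chose the gene and are at 0 in shCTR by the rule, are part of these totals, and without them 271121 and 251921 bp were covered in shPHF8. The body also held 33 shared regions and 1 lost region. The 14 regions lay from 68.07 to 949.1 kb downstream of the gene start. Introns 1 and 7 held 3 regions each, and introns 3, 5, 6 and 8 held 2 each. The one with most bases covered was in intron 5 (chr8:118945801-118955000), where the shPHF8 peaks covered 9000 and 7800 bp. Over the 14 regions the covered length went from 2600 to 9000 bp in replicate 1 and from 1600 to 7800 bp in replicate 2. No gained region was centred between 88.57 kb, in intron 1, and 443.2 kb, in intron 3.

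**Figure D5:**
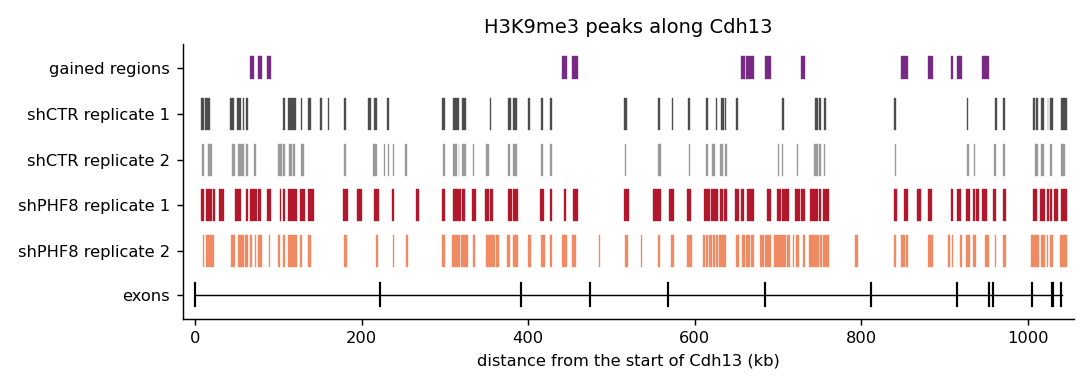
H3K9me3 peaks in the 4 libraries along Cdh13 (x axis, distance from the gene start in kb), with the 14 gained regions on top and the exons of the longest coding transcript below. The gained regions stand at 68.07 to 949.1 kb between peaks that all libraries share, and the shPHF8 rows are more densely filled than the shCTR rows.

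L3mbtl4, whose protein carries MBT repeats, a domain that binds methylated lysines, was next with 7 regions on chromosome 17. Its body (chr17:68273797-68780086) was covered over 61490 and 46804 bp in shCTR and 158690 and 150804 bp in shPHF8. Its region with most bases covered (chr17:68583801-68594200) had 6200 and 10400 bp in the shPHF8 libraries and touched an exon. Wwox, which encodes a WW-domain oxidoreductase and spans a common fragile site in human, held 6 regions, all in its intron 8, from 418 to 897.5 kb downstream of the start. Peaks covered 91108 and 87800 bp of Wwox in shCTR and 192108 and 184108 bp in shPHF8. Cdh13 and Wwox lie on chromosome 8, which had 13.7 gained regions per 10 Mb of gene body, the highest of the 19 chromosomes, against 6.44 on chromosome 2 and 9.89 over all. These genes supplied 20 of its 72 regions, and without them the rate on chromosome 8 was 10.2.

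Among the other genes with most regions were neuronal genes and genes of vesicle traffic and signaling. Asic2, an acid-sensing cation channel, had 5 gained and 4 lost regions. Peaks covered 147400 and 149200 bp of its body in shCTR against 241400 and 200400 bp in shPHF8. Ank3, the ankyrin that organizes the axon initial segment, had 5 gained and 2 lost regions. Its values were 49600 and 43800 bp in shCTR and 116800 and 87400 bp in shPHF8. Phactr1, a regulator of protein phosphatase 1 and actin, had 26600 and 27000 bp in shCTR and 65000 and 53000 bp in shPHF8 over a body with 5 regions. All 5 Phactr1 regions were in introns 3 and 4. Trappc9, a subunit of a complex that tethers transport vesicles, had 5 regions, with 17200 and 25200 bp in shCTR and 45000 and 56000 bp in shPHF8. Maml3, a coactivator of Notch signaling, had 4 regions, with 58200 and 52000 bp in shCTR and 107000 and 84400 bp in shPHF8. These totals include the gained regions for which the genes were chosen, and both shPHF8 libraries covered more bases than both shCTR libraries in 630 of the 781 host genes (80.7%). With the gained regions left out, Asic2 had 210600 and 183200 bp in shPHF8, Ank3 98200 and 74400 bp, Phactr1 47000 and 38400 bp, Trappc9 25800 and 42000 bp and Maml3 86000 and 71000 bp. For the remaining pair of the 10 genes the count is less clear. Gm20388 had 6 gained and 12 lost regions, but its annotation spans 4.43 Mb with 71 other protein-coding genes inside. Its shPHF8 and shCTR values overlapped (638800 and 694200 bp in shCTR, 746200 and 649400 bp in shPHF8). Serpina1b, 1 of several near-identical alpha-1-antitrypsin genes, had 5 regions in a body annotated over 102218 bp, and from 30.9 to 56.7% of their 50-base words were repeated. It had 5800 and 3400 bp covered in shCTR and 49218 and 50773 bp in shPHF8. Outside its gained regions Serpina1b had 30018 and 25573 bp in shPHF8.

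Of single regions, the one with most bases covered lay in intron 4 of Caln1 (chr5:130642601-130655400), which encodes a neuronal calcium sensor of the calneuron family. Its shPHF8 peaks covered 9400 and 11800 bp of 12800 bp, and the nearest shCTR peak was 1400 bp away. In Igsf11, an immunoglobulin-like adhesion protein of synapses, the region in intron 1 (chr16:38908401-38919400) was covered over 11000 and 7400 bp, and it overlaps the antisense gene Gm15802. Nlrp5, a maternal-effect gene of oocytes, had 9600 and 7400 bp at its 3′ end over 2 processed pseudogenes. The region at the 3′ end of Il1r2 had 8600 and 7800 bp covered, and that of Phyh, the peroxisomal enzyme of phytanic acid breakdown, 10800 and 5600 bp. Both of these had a shared region 1000 bp away. The region of Wwox with most bases covered (chr8:115287601-115295600) had 8000 and 6800 bp. Presence in both shPHF8 libraries follows from the rule, and the length covered in these regions differed by up to 5200 bp between them.

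The 2 shPHF8 libraries gave the same interval, end to end, in 5 regions of at least the median width that lead this order. These were in C2cd6 (5200 bp), Trpm2 (5200 bp), a calcium channel gated by ADP-ribose, Itpr2 (4600 bp), an inositol trisphosphate receptor, Nlrp9c (4600 bp) and Cachd1 (4200 bp), a protein related to calcium channel subunits. The Trpm2 region (chr10:77914601-77919800) is the source of 1 of the stretches printed above.

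Lists of genes were compared with the 3.75% of all protein-coding genes that hold a gained region. The lists also differed in gene length, so the number of regions per 10 Mb of gene body is given beside the shares, against 9.89 over all gene bodies. Body totals of the genes named include their gained regions, which by the rule add bases in shPHF8 and none in shCTR. Where leaving these regions out made the values of the conditions meet or overlap, the remainders are given. Genes of synaptic and neural adhesion had a gained region in 18 of 63 (28.6%) and a lost region in 16 (25.4%), at a median gene length of 327085 bp. Per 10 Mb of body they had 7.25 regions. In Opcml, an adhesion protein of the IgLON family, 3 regions were gained, with 81200 bp covered in each shCTR library and 100000 and 86600 bp in shPHF8. Outside its gained regions Opcml had 89800 and 78800 bp in shPHF8, so the conditions overlapped. Cntnap5c, of the neurexin-like contactin-associated proteins, had 2600 and 2000 bp in shCTR and 14800 and 13000 bp in shPHF8. Tenm3, a teneurin, had 73000 and 76800 bp in shCTR and 116319 and 99919 bp in shPHF8. In Ntm, another IgLON gene, the values were 24000 and 23400 bp in shCTR and 33000 and 36200 bp in shPHF8. Opcml also held 3 lost regions, Tenm3 and Ntm 2 each and Cntnap5c 0.

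Genes of axon guidance had a gained region in 7 of 69 (10.1%) and a lost region in 15 (21.7%), with 9.69 gained regions per 10 Mb. Ephb1, a receptor tyrosine kinase for ephrin-B ligands, had 4 gained regions, with 28600 and 34800 bp covered in shCTR and 81473 and 64273 bp in shPHF8. Slit3, a secreted ligand of Robo receptors, had 80884 and 94377 bp in shCTR and 141484 and 116484 bp in shPHF8. It also held 3 lost regions, and Ephb1 held 1. The receptor Epha2 had 0 and 2600 bp in shCTR and 8400 and 9600 bp in shPHF8. Epha4 had no shCTR peak and 11000 and 1800 bp in shPHF8, so that the 2 shPHF8 libraries differed widely. Outside their gained regions, shPHF8 peaks covered 2600 and 3400 bp of Epha2 and 7400 and 0 bp of Epha4.

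Of the channel genes for potassium, sodium and calcium, 16 of 130 (12.3%) had a gained and 18 (13.8%) a lost region, with 12.1 gained regions per 10 Mb. Kcnj6, an inward rectifier that opens on G-protein signaling, led with 4 regions and with 35501 and 46101 bp in shCTR against 82600 and 61800 bp in shPHF8. Kcns3, a silent subunit of voltage-gated potassium channels, had 3656 bp in each shCTR library and 12056 and 11255 bp in shPHF8. Scn4a, the sodium channel of skeletal muscle, had 1409 and 0 bp in shCTR and 13800 and 6088 bp in shPHF8. Cacng2 (stargazin), which carries AMPA receptors to synapses, had 4600 and 11600 bp in shCTR and 19800 and 13400 bp in shPHF8. Outside their gained regions, Scn4a had 8400 and 0 bp in shPHF8 and Cacng2 had 13800 and 6400 bp, so the conditions overlapped in both. Receptors of glutamate and GABA had a gained region in 6 of 43 (14.0%) and a lost region in as many, with 7.51 gained regions per 10 Mb. Grik4, a kainate receptor subunit, had 30000 and 27400 bp in shCTR and 55000 and 55200 bp in shPHF8, and Gria1, an AMPA receptor subunit, had 23200 and 30200 bp in shCTR and 72844 and 71200 bp in shPHF8. Grid1, a delta receptor subunit, had 17400 and 23600 bp in shCTR and 35000 and 22000 bp in shPHF8, and here the conditions overlapped. Grin3a, an NMDA receptor subunit, had 2000 and 1000 bp in shCTR and 8200 and 7000 bp in shPHF8.

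Cadherins and unclustered protocadherins had a gained region in 5 of 42 (11.9%) and a lost region in 12 (28.6%), and 14 of their 20 gained regions were those of Cdh13. With these, they had 19 gained regions per 10 Mb. Cdh26 had 3 regions, with 2966 and 3566 bp in shCTR and 22366 and 15166 bp in shPHF8. Outside its gained regions Cdh26 had 6366 and 1966 bp in shPHF8, so the conditions overlapped. Fat2, a large cadherin of the cerebellum and epithelia, had 6392 and 5200 bp in shCTR and 30792 and 13000 bp in shPHF8. In Cdh23, the tip-link cadherin of hair cells, the values were 63400 and 66000 bp in shCTR and 92400 and 73200 bp in shPHF8. Collagens had a gained region in 7 of 42 (16.7%) and a lost region in 7 others, and no collagen gene had both. They had 16.5 gained regions per 10 Mb. Col23a1 had 23600 and 19400 bp in shCTR and 55200 and 35800 bp in shPHF8, and Col14a1 had 6051 and 3051 bp in shCTR and 13800 and 11800 bp in shPHF8. Outside its gained region Col14a1 had 6000 and 9200 bp in shPHF8, so the conditions overlapped. Axonemal dynein heavy chains, which drive the beat of cilia, had a gained region in 4 of 12 (33.3%), namely Dnah8, Dnah9, Dnah10 and Dnah17, and a lost region in 3. Their 4 gained regions came to 16.6 per 10 Mb. Dnah17 had 6000 and 8600 bp in shCTR and 22800 and 20800 bp in shPHF8.

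Among families of metabolism and transport, solute carriers had a gained region in 15 of 339 (4.42%) and a lost region in 18 (5.31%), with 9.79 gained regions per 10 Mb. Slc9a9, a sodium-proton exchanger of endosomes, had 4 regions, with 78800 and 68845 bp in shCTR and 151400 and 118800 bp in shPHF8. ABC transporters had a gained region in 5 of 48 (10.4%) and a lost region in 3 (6.25%), with 16.2 gained regions per 10 Mb. Abca1, which exports cholesterol from cells, had 1800 and 1000 bp in shCTR and 15600 and 9600 bp in shPHF8. Cytochrome P450 genes had a gained region in 6 of 93 (6.45%) and a lost region in 1 (1.08%). At a median gene length of 21211 bp, they had 24.1 gained regions per 10 Mb, from only 6 regions. In Cyp27a1, a sterol hydroxylase of mitochondria, no shCTR peak was listed, and 3492 and 3800 bp were covered in shPHF8. Cyp19a1 (aromatase) had 9600 and 14000 bp in shCTR and 31000 and 21600 bp in shPHF8. Cyp3a44 had no shCTR peak and 4200 and 12000 bp in shPHF8, and Cyp2b23 had none and 3600 and 4000 bp. Outside their gained regions, shPHF8 peaks covered 0 and 1400 bp of Cyp27a1, 0 and 6800 bp of Cyp3a44 and no base of Cyp2b23. Cyp3a44 and Cyp2b23 belong to clusters of similar genes, so their peaks may share reads with paralogs. Serpins had a gained region in 2 of 60 (3.33%), Serpina1b and its paralog Serpina1d, and a lost region in none. Serpina1d is annotated inside the body of Serpina1b, and its region is 1 of the 5 of Serpina1b, which leaves 5 distinct regions. Counted once for each gene they overlap, they came to 47.8 per 10 Mb. UDP glucuronosyltransferases had neither in any of 21 genes.

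Zinc finger and chemoreceptor genes, many of which lie in clusters, had shares below the 3.75% of all genes. Zfp zinc finger genes had a gained region in 11 of 385 (2.86%) and a lost region in as many, with 9.59 gained regions per 10 Mb. Among the 11, Zfp607a had only 425 and 0 bp of its body covered in shPHF8. Zfp943 had 35768 and 37400 bp in shCTR and 49000 and 50568 bp in shPHF8, and Zfp808 had 19344 and 11000 bp in shCTR and 40600 and 48944 bp in shPHF8. Vomeronasal receptors had a gained region in 5 of 326 (1.53%), all Vmn2r genes, and a lost region in none, with 9.58 gained regions per 10 Mb. A gained region overlapped 1 of 1087 olfactory receptor genes (0.0920%), Olfr1330, and a lost region as many, with 1.36 gained regions per 10 Mb. The region only clipped Olfr1330, whose body had 597 and 0 bp covered in shPHF8 and 0 and 4 bp in shCTR. The median gene length was 17371 bp for the Zfp genes, close to the 17629 bp of all protein-coding genes, 10304 bp for vomeronasal and 5982 bp for olfactory receptors.

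The share among factors of neural stem cells was near that of all genes and the share among genes of H3K9 methylation was above it, from 2 hosts each. Transcription factors of neural stem cells and neurogenesis had a gained region in 2 of 61 (3.28%), and a lost region in 11 (18.0%), with 4.58 gained regions per 10 Mb. Myt1l, a zinc finger factor of neurons that represses other fates, had 2 gained regions, with 26200 and 30400 bp in shCTR and 55400 and 38800 bp in shPHF8. Gli2, a transcription factor of Hedgehog signaling, had 1, with 18800 and 16800 bp in shCTR and 28000 and 22200 bp in shPHF8. Of 30 writers, readers and erasers of H3K9 methylation, 2 (6.67%) had a gained and 4 (13.3%) a lost region, with 12.3 gained regions per 10 Mb. Both hosts encode PR-domain factors: Prdm16 had 61200 and 84400 bp in shCTR and 116200 and 94000 bp in shPHF8, and Mecom had 29200 and 44800 bp in shCTR and 31000 and 24600 bp in shPHF8. In Mecom the conditions overlapped. None of 56 genes of serine, one-carbon and amino acid metabolism had a gained region, and 8 (14.3%) had a lost one.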

How the data were processed

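H3K9me3 ChIP-seq was performed in shCTR and shPHF8 NSCs, with 2 libraries per condition read as 50 bp single ends. The authors aligned reads to mm10 (SOAP2 in the methods; Bowtie2 2.3.5.1 and SAMtools 1.9 in the submitters' processing notes) and called peaks in each library with SICER2. The deposited files hold peak positions only, on a grid of 200 bp, and no score. The lists hold no read counts and read depth was not used here, so precision was judged from the 2 libraries of a condition.

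Peaks on chromosomes 1 to 19 were merged where they overlapped or touched (Python 3.11.15, numpy 2.4.6, checked against bedtools 2.31.1 on simulated peaks). Genes, exons and starts of protein-coding transcripts came from GENCODE M21, sequence and soft-masking from GRCm38.p6. Words of 50 bases were counted on both strands with numba 0.67.0. No test was run, since peak presence chose the regions. Shares carry 95% Wilson intervals for some. Genes named in the text are the hosts of the 10 regions with most bases covered in shPHF8, the 10 genes with most regions, up to 4 hosts of each gene list, the 2 regions on either side of the 3 kb limit and the 5 regions with the closest agreement. Genes named as mostly repeated or without shCTR peaks were added after their values were seen. The regions and gene lists were chosen with earlier results of these data known. Alternatives covered each library left out, peak width and number, merging distance, start sites, exons and masking.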

Additional observations from a re-analysis of the deposited data

How the results depend on the processing

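No paired analysis was possible because the result comes from no test. Leaving out each library in turn gave 1846 to 3471 gained regions, 1341 to 2223 host genes, 64.4 to 71.7% in introns only and 10.1 to 13.5% at least 50% soft-masked, in each case with the highest value without shPHF8 replicate 1; fewer libraries make the rule easier to meet. With peaks of at least 2000 bp only there were 1689 regions and 1285 host genes. At an equal covered length, an alternative chosen after seeing the data, there were 289 regions, 255 host genes, 60.6% in introns only and a median of 4500 bp covered, and 278 of the 981 regions were overlapped. The share in introns only was 69.5% with starts of all transcripts, 68.3% beyond 10 kb, 68.9% for regions wholly inside the gene and 68.0% with exons of protein-coding transcripts. A limit of 75% soft-masked left 2.75% of regions, and words of 32 bases put 2.65% among those mostly repeated. Another 56 values stayed within 1.5 times the count, the interval or the SD, among them 753 regions when both shPHF8 libraries had to cover at least 50% and, chosen after seeing the data, 976 without genes above 2 Mb. Without read counts the strength of a peak could not be compared.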
